A study of Mus musculus with 6 samples.

Results

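The lymphatic endothelial identity genes are a set of 9 genes that mark or build lymphatic vessels: the transcription factor genes Prox1, Nr2f2 and Foxc2, the surface protein genes Lyve1 and Pdpn, and Mmrn1, Klhl4, Ccl21a and Reln. They were chosen by symbol, and all 9 were found among the 18422 genes of the deposited table and counted deeply enough to be tested. The transcripts of mouse ear skin at postnatal day 21 had been sequenced after poly(A) selection. There were 3 libraries from mice of the genotype Vegfr2ecko, called ecko here, in which Vegfr2 (symbol Kdr, the main VEGF-A receptor of endothelium) is deleted in endothelial cells, and 3 from littermate controls, and mice of both groups had been given tamoxifen, the drug that starts the deletion. The driver of the Cre recombinase, the exons removed, the strain and which of the series' tamoxifen schedules these mice received are not given in the sources used here.

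Lymphatic vessels return tissue fluid and carry immune cells from the skin. Their endothelium arises in the embryo from veins, where Sox18 and Nr2f2 switch on Prox1, and Prox1 is needed throughout life to hold the lymphatic state. Prox1 and the receptor VEGFR3 (gene Flt4), which binds VEGF-C, sustain each other. Depending on its driver, an endothelial deletion can reach blood and lymphatic vessels alike. The series names lymphatic and blood-forming programmes as its subject, and the comparison addressed here is the level of the lymphatic genes in ecko against control skin.

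Totals per library were 17255416 to 18054696 expected counts, meaning reads assigned to genes by estimate. Kdr, the targeted gene, had 475, 511 and 595 counts in the controls and 58, 37 and 42 in the ecko libraries (log2 fold change -3.54, SE 0.17, edgeR adjusted p = 2.68e-05). All 8 genes defining skin (keratins, Lor, Flg and collagens) were present, with a summed level of 40758 to 44685 CPM in controls, where CPM is the count scaled to the same effective total in every library. Reads of 4 Y-linked genes read control 3 and ecko 3 as female and the other 4 libraries as male. Nothing in the labels ties the libraries to numbered animals, so p-values measure the spread between these samples. In bulk tissue, fewer cells of a type and less RNA per cell cannot be told apart.

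Of the 9 lymphatic genes, 4 fell in ecko skin and none rose. Prox1, Klhl4, Ccl21a and Mmrn1 passed an adjusted p of 0.05 in the edgeR quasi-likelihood test over all genes, at 51.7%, 54.3%, 55.6% and 68.0% of their control means. Across the 14866 genes tested, 1.08% were called lower and 0.686% higher. Lyve1, Reln, Foxc2 and Nr2f2 had values below 0 and Pdpn a value above 0, without passing. At an unadjusted p of 0.05, 7 of the 9 were lower and 0 higher, against 7.95% and 7.41% of all genes tested. DESeq2 called 4 lower and 0 higher, where it called 1.50% of the genes it tested lower and 1.27% higher. The median log2 fold change of the 9 was -0.55, against -0.0018 over all genes tested. For 6 of the 9, all 3 ecko values lay below all 3 control values, as they did for 10.8% of the genes tested. For none of the 9 did all ecko values lie above all controls, which held for 10.2% of the genes tested.

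The 4 calls changed with the ecko libraries left out, while the fold changes moved little. Without ecko 2 none of the 4 passed, without ecko 1 only Ccl21a and Klhl4 passed, and without ecko 3 only Prox1 passed, while all 4 passed with any 1 control left out. In these 3 settings the lost genes had edgeR adjusted p values of 0.0506 to 0.116, and the log2 fold changes without ecko 2 were -0.96 for Prox1, -0.83 for Ccl21a, -0.87 for Klhl4 and -0.52 for Mmrn1. In the male pups alone Prox1, Ccl21a and Mmrn1 passed, where 0.610% of the genes tested were called lower. With an ecko library left out, the number of genes called lower over the whole table went from 160 to 50, 34 and 67 without ecko 1, 2 and 3.

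**Figure D1:**
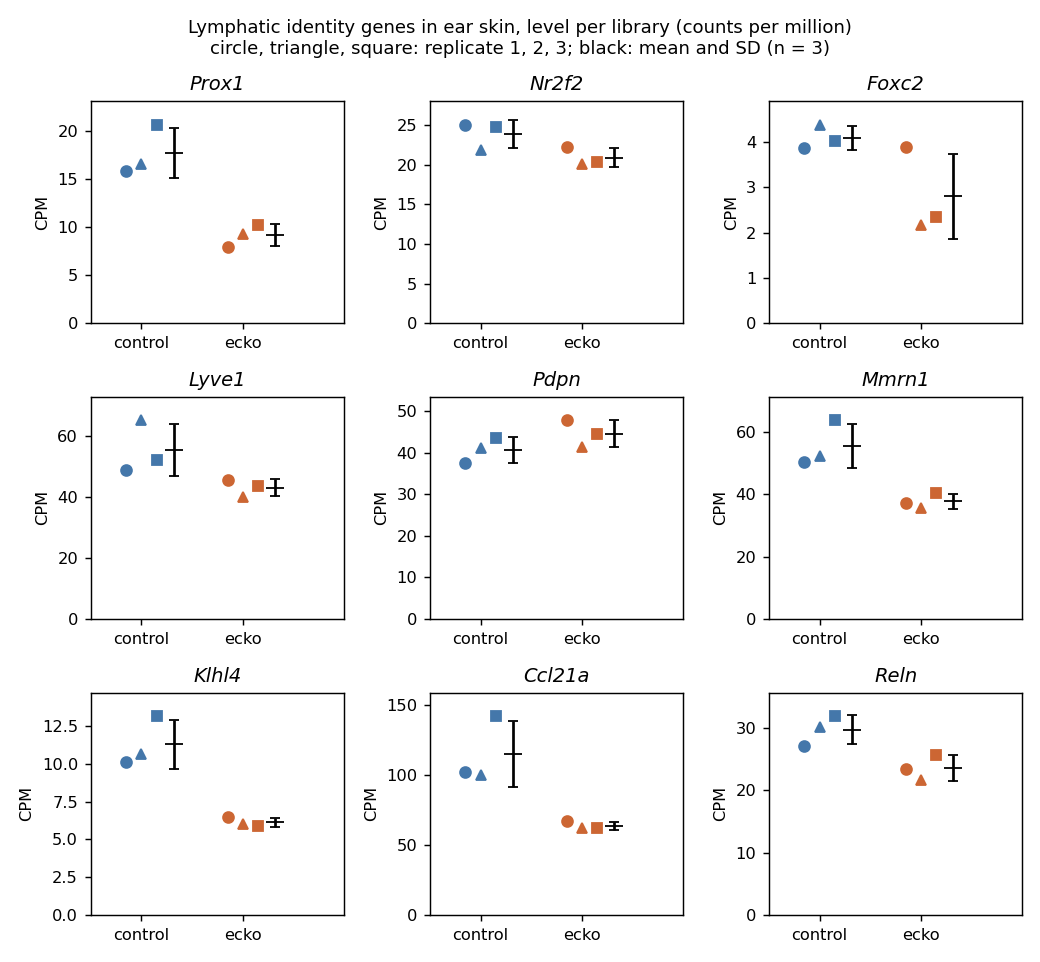
Level of each lymphatic gene in CPM (vertical axis, starting at 0) in the 3 control and 3 ecko libraries, with the mean and SD in black. The groups are separate for Prox1, Klhl4, Ccl21a, Mmrn1, Lyve1 and Reln and overlap for Nr2f2, Foxc2 and Pdpn.

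Among the transcription factors, Prox1 fell and the genes Nr2f2 and Foxc2 did not pass. Prox1 (Entrez 19130, chromosome 1, 190118035 to 190170827 in GRCm38.p6) is the homeobox gene that sets and keeps lymphatic identity. It had 15.8, 16.6 and 20.6 CPM in controls 1 to 3 and 7.94, 9.30 and 10.2 CPM in ecko 1 to 3. Every ecko library lay below every control, and the female library was the highest in each group. The mean went from 17.7 ± 2.60 to 9.14 ± 1.13 CPM (SD, n = 3 each), a log2 fold change of -0.95 (SE 0.13, edgeR adjusted p = 0.00941). The change was -0.91 (edgeR adjusted p = 0.0260) in the male pups alone, a fit chosen after the data were seen.

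Prox1 is also expressed in skeletal muscle, which the ear contains. The 13 muscle genes listed summed to 9318, 6838 and 6229 CPM in controls 1 to 3 and to 5309 to 5971 CPM in the ecko libraries. Of the 13 muscle genes, 10 were below 0, as were 50.5% of all genes tested. For 7 of the 13 all ecko values lay below all controls, as for 10.8% of the genes tested. None of the 13 passed, 9 were lower and 0 higher at an unadjusted p of 0.05 (7.95% and 7.41% of all genes tested), and DESeq2 called 1 lower. Acta1 and Myh1, the muscle genes of highest level, had log2 fold changes of -0.34 (SE 0.14) and -0.32 (SE 0.12). The part of muscle in the Prox1 result was not tested. The antisense gene Prox1os overlaps exons of Prox1, and since no strand setting is given its reads could not be told apart.

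Nr2f2 (Entrez 11819, chromosome 7, 70351946 to 70366746) encodes COUP-TFII, a nuclear receptor of venous and lymphatic endothelium that also acts in fibroblasts. It had 25.1, 21.9 and 24.7 CPM in controls and 22.2, 20.1 and 20.3 CPM in ecko libraries, so ecko 1 lay above control 2. Its log2 fold change was -0.19 (SE 0.09, edgeR adjusted p = 0.344). The antisense gene B130024G19Rik overlaps its exons. Of the 6 genes of venous blood endothelium, which share Nr2f2 expression, 4 were below 0 and 2 above, where 50.5% of all genes tested were below 0. Vwf fell by 0.40 (SE 0.08, edgeR adjusted p = 0.0343), a call lost without control 1, control 2 or any 1 ecko library and in the male pups. Ephb4 had -0.24 (SE 0.10), Sele -0.32 (SE 0.18), Ackr1 -0.17 (SE 0.14), Selp 0.24 (SE 0.14) and Vcam1 0.25 (SE 0.12), and none of them passed. All ecko values lay below all controls for Vwf and Sele, as for 10.8% of the genes tested. They lay above all controls for Vcam1, as for 10.2%. Sele, Ackr1, Selp and Vcam1 are outside the naming rule given below and were named to complete the list. The 6 genes summed to 163 to 176 CPM in controls and 139 to 152 CPM in ecko libraries.

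Foxc2 (Entrez 14234, chromosome 8, 121116171 to 121118895), a forkhead gene needed for lymphatic valves and for the collecting vessels, was the least abundant of the 9. It had 67, 77 and 71 counts in controls, or 3.87, 4.38 and 4.03 CPM, and 67, 39 and 42 counts in ecko libraries, or 3.88, 2.16 and 2.35 CPM. Ecko 1 lay within the controls while ecko 2 and ecko 3 lay below them. The log2 fold change was -0.55 (SE 0.23, edgeR adjusted p = 0.284), and without ecko 1 it was -0.86 without passing. Foxc2 can also be expressed around cartilage, whose 7 tested genes summed to 1273 to 1827 CPM in controls and 1246 to 1291 CPM in ecko libraries. All 7 were below 0, as were 50.5% of all genes tested, with 0 passing (2 lower and 0 higher at an unadjusted p of 0.05, and 0 by DESeq2). The part of cartilage in the Foxc2 values was not tested. Chad and Col2a1 led that list, with log2 fold changes of -0.22 (SE 0.13) and -0.21 (SE 0.14).

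The surface markers Lyve1 and Pdpn differed from each other in direction, and neither passed. Lyve1 (Entrez 114332, chromosome 7, 110850607 to 110862953) encodes a hyaluronan receptor through which immune cells enter lymphatic capillaries. It had 49.0, 65.2 and 52.1 CPM in controls and 45.5, 40.2 and 43.8 CPM in ecko libraries. The groups did not overlap, but the gap between control 1 and ecko 1 was small beside the spread of the controls. The log2 fold change was -0.36 (SE 0.10, edgeR adjusted p = 0.144), and it was -0.23 without control 2. Some tissue macrophages also express Lyve1, and the 10 macrophage genes listed summed to 439, 694 and 621 CPM in controls and 661 to 723 CPM in ecko libraries. Of these genes 8 were above 0 and 2 below, where 50.5% of all genes tested were below 0. None passed and DESeq2 called 0, with 1 higher and 0 lower at an unadjusted p of 0.05. F13a1 had 0.20 (SE 0.11) and Csf1r 0.21 (SE 0.13). The part of macrophages in the Lyve1 values was not tested.

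Pdpn (Entrez 14726, chromosome 4, 143267409 to 143299564) encodes podoplanin, a membrane protein of lymphatic endothelium, fibroblasts and some keratinocytes that binds the platelet receptor CLEC-2. It had 37.4, 41.2 and 43.5 CPM in controls and 47.7, 41.3 and 44.6 CPM in ecko libraries, with overlapping groups. Its log2 fold change was 0.13 (SE 0.08, edgeR adjusted p = 0.490). The 10 genes of the fibroblast list summed to 26056 to 32034 CPM in controls and 24510 to 28759 CPM in ecko libraries. Of these, 8 were below 0, as were 50.5% of all genes tested. The 7 genes of the basal keratinocyte list summed to 9895 to 11267 CPM in controls and 10360 to 10913 CPM in ecko libraries, with 2 below 0. The part of either cell type in the Pdpn values was not tested. In those lists Col3a1, Col1a2, Krt5 and Krt14 led, with log2 fold changes of -0.14 (SE 0.14), -0.18 (SE 0.12), 0.04 (SE 0.09) and 0.10 (SE 0.10), and none of the 17 genes passed (0 fibroblast genes and 1 keratinocyte gene at an unadjusted p of 0.05, with 0 and 1 called by DESeq2).

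Mmrn1 and Klhl4 both fell. Mmrn1 (Entrez 70945, chromosome 6, 60944317 to 60989378) encodes multimerin 1, a large secreted protein of lymphatic endothelium and platelets. It had 50.5, 52.4 and 63.7 CPM in controls and 37.2, 35.7 and 40.4 CPM in ecko libraries, without overlap. The log2 fold change was -0.56 (SE 0.09, edgeR adjusted p = 0.0219). Klhl4 (Entrez 237010, chromosome X, 114474333 to 114561129) is a gene of the kelch-like family. It had 10.1, 10.6 and 13.2 CPM in controls and 6.49, 6.03 and 5.87 CPM in ecko libraries, a log2 fold change of -0.88 (SE 0.13, edgeR adjusted p = 0.00977). As an X-linked gene it was also read within males, where it was at -0.73 and no longer passed (edgeR adjusted p = 0.0620).

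Ccl21a (Entrez 18829, chromosome 4, 42772860 to 42773991) encodes the chemokine CCL21, which guides dendritic cells and T cells into lymphatic vessels through CCR7. It had 102, 100.1 and 142 CPM in controls and 67.1, 62.3 and 62.2 CPM in ecko libraries. Control 3 stood above the other controls, and the ecko libraries lay close together below all of them. The log2 fold change was -0.85 (SE 0.12, edgeR adjusted p = 0.00968), and -0.66 without control 3, still passing.

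Ccl21a has near-identical copies, so reads cannot be assigned to it with certainty. The table holds 4 further rows for copies, Ccl21c, Gm13304, Gm10591 and Gm21541 (now called Ccl21d), and these 4 carried identical values in every library. Each had 308.57, 244.33 and 285.47 expected counts in controls and 157.80, 112.64 and 107.60 in ecko libraries. In the GENCODE M21 annotation of GRCm38, the coding sequences of Gm13304, Gm10591 and Gm21541 were the same, and each differed from that of Ccl21a at 2 of 399 positions, T84A and C194T (the Ccl21a base, the position from the first coding base, then the base of the copy). The stretches around both positions are shown because they are the places in the coding sequence where a read can tell Ccl21a from these copies. The copies cannot be told from one another there, and the coding sequence of Ccl21c was not compared. The capital marks the differing base, and the stretches are from the coding strand.

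Ccl21a coding bases 64 to 104: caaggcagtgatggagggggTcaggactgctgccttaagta
Gm21541 coding bases 64 to 104: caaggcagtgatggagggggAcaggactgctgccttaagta
Ccl21a coding bases 174 to 214: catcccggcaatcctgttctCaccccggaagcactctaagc
Gm21541 coding bases 174 to 214: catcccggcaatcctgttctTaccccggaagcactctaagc

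The estimate gave Ccl21a 59.0%, 64.3% and 68.7% of the counts of these 5 rows in controls and 64.7%, 71.4% and 72.1% in ecko libraries. Each copy row fell as well (Ccl21c log2 fold change -1.16, SE 0.17, edgeR adjusted p = 0.00941). Summed over the 5 rows, a quantity that does not depend on how reads were divided among them, the level went from 179 ± 25.9 to 92.4 ± 9.81 CPM (SD, n = 3 each). The summed log2 fold change was -0.95 (SE 0.11, edgeR adjusted p = 0.00403).

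**Figure D2:**
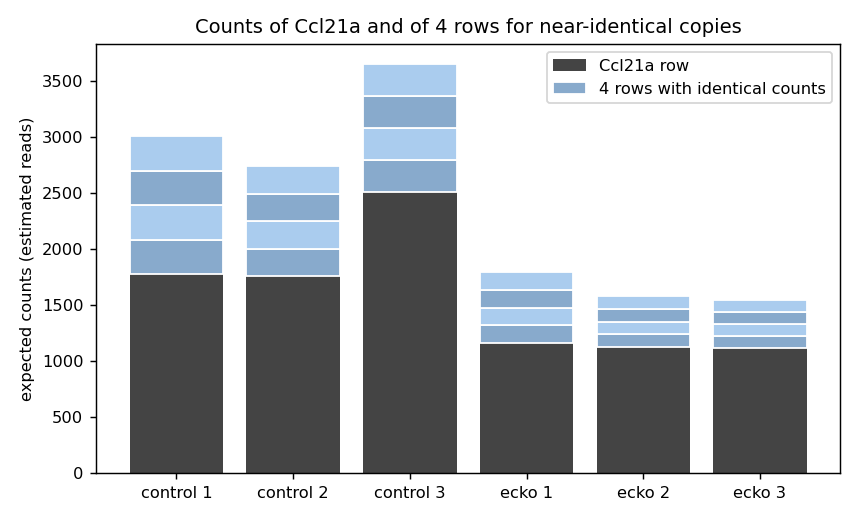
Expected counts (estimated reads, vertical axis) of the Ccl21a row and of the 4 rows with identical counts, stacked for each library. The stacks of the 3 ecko libraries reach 1543 to 1790 counts and those of the controls 2735 to 3647.

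Reln (Entrez 19699, chromosome 5, 21884454 to 22344705) encodes reelin, a secreted glycoprotein made by collecting lymphatic vessels and tied to their smooth muscle coat. It had 27.2, 30.2 and 31.9 CPM in controls and 23.5, 21.6 and 25.7 CPM in ecko libraries. The groups did not overlap. The log2 fold change was -0.33 (SE 0.09, edgeR adjusted p = 0.126), which did not pass, and the antisense gene Gm10475 overlaps its exons.

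**Figure D3:**
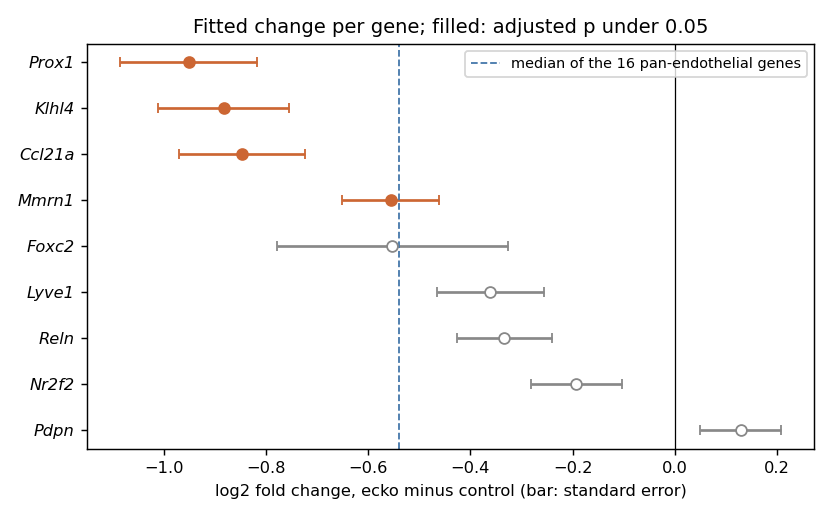
Log2 fold change of each lymphatic gene (ecko minus control, horizontal axis) with its standard error. Filled points passed an adjusted p of 0.05, and the dashed line is the median of 16 pan-endothelial genes, -0.54, which Mmrn1 and Foxc2 lie beside.

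On a scale that allows comparison between genes, CPM per kilobase of the longest coding transcript in GENCODE M21, control levels ran from Ccl21a at 132 ± 27.1, through Pdpn at 22.4 ± 1.70, Lyve1 at 19.2 ± 2.97, Mmrn1 at 12.4 ± 1.60 and Nr2f2 at 5.66 ± 0.417, down to Klhl4 at 3.15 ± 0.454, Reln at 2.54 ± 0.202, Prox1 at 2.23 ± 0.328 and Foxc2 at 1.50 ± 0.0967 (SD, n = 3). The SD ranges of Pdpn and Lyve1 overlapped, as did those of Klhl4 and Reln and of Reln and Prox1. In ecko skin the order was the same except that Reln (2.02 ± 0.175) stood above Klhl4 (1.71 ± 0.0895), and the ranges of Prox1 (1.15 ± 0.143) and Foxc2 (1.03 ± 0.347) overlapped. The spread of the ecko libraries was widest for Foxc2, with a coefficient of variation of 33.8%, and that of the controls for Ccl21a, with 20.5%. Control 3 was the highest control for 6 of the 9 genes.

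Promoters of the 4 called genes are shown. RefSeq start sites (GRCm38.p6) were at hand for 7 of the 9 genes. The 250 bases before the start are printed for Prox1 (its upstream start, chr1:190170828-190171077, minus strand), Mmrn1 (chr6:60944067-60944316, plus strand), Klhl4 (chrX:114474083-114474332, plus strand) and Ccl21a (chr4:42773992-42774241, minus strand). Capitals mark GGAA or its reverse complement TTCC, the core bound by ETS factors, a family that acts in all endothelium.

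Prox1: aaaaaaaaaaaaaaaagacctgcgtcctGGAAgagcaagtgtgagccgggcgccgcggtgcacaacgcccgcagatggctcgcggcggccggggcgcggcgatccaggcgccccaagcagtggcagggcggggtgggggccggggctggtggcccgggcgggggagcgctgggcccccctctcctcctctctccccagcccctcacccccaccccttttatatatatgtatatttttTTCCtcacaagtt
Mmrn1: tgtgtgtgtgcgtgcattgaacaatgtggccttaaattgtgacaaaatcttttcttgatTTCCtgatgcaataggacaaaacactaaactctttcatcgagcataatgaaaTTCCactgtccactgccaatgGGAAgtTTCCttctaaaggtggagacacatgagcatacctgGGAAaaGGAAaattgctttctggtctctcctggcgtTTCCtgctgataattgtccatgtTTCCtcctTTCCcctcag
Klhl4: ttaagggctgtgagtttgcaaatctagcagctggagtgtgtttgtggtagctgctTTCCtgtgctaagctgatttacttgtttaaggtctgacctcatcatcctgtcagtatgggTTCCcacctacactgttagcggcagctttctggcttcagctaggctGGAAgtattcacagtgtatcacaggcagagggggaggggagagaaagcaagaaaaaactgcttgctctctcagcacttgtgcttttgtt
Ccl21a: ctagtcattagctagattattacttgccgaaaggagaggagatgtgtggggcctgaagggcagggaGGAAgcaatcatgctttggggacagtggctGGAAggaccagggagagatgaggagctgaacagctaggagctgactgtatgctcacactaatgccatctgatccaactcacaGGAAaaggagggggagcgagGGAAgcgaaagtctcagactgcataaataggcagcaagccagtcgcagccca

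Mmrn1 held 9 such cores, Ccl21a 4 and Klhl4 3, and Prox1 held 2 at the upstream start and 5 at its second start. Among the genes not called, Nr2f2 held 6, Pdpn 3 and Reln 2. Of 32851 promoter windows of this length, 93.4% held at least 1, with a median of 3. ACAAT, the core bound by SOX factors, was searched on both strands. It occurred 3 times for Mmrn1 and 1 time for Pdpn, and in 27.7% of all windows. The windows of Prox1 (either start), Klhl4, Ccl21a, Reln and Nr2f2 did not hold it. AGGTCA, a site of COUP-TF factors such as Nr2f2, occurred once in the windows of Klhl4 and Pdpn and in 14% of all windows. TGTTTA, a forkhead core, occurred in those of Klhl4, Pdpn and the second Prox1 start and in 12% of all windows. A match is a run of letters and does not show that a factor binds there.

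The other lists of genes tied to lymphatic vessels were not limited to genes particular to those vessels. A few of the listed genes fell and many did not pass. Among 14 genes of VEGF-C, angiopoietin and adrenomedullin signalling, 5 fell and 0 rose (3 higher at an unadjusted p of 0.05, 1 by DESeq2), with a median log2 fold change of -0.11. The count of 5 was 3 without control 1 and 2 without control 2 or any 1 ecko library. Flt4, the VEGF-C receptor, had 25.8, 26.9 and 28.6 CPM in controls and 17.3, 16.8 and 17.2 CPM in ecko libraries, a log2 fold change of -0.67 (SE 0.08, edgeR adjusted p = 0.00492). The angiopoietin receptor gene Tek fell by 0.66, its partner receptor Tie1 by 1.07 and the ligand gene Angpt2 by 0.55. Adamts14, a protease gene, fell by 0.36. The ligand genes Vegfc and Vegfd, named after their values were seen, had 0.19 (SE 0.13) and 0.24 (SE 0.11) and did not pass.

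Of 10 other transcription factors of lymphatic development, Sox18, which switches on Prox1 in the embryo, fell by 0.93 (SE 0.10, edgeR adjusted p = 0.00256) and Ets1 by 0.31 (SE 0.06). None of the 10 rose, also at an unadjusted p of 0.05 or by DESeq2, and the median was -0.02. At an unadjusted p of 0.05, 3 of the 10 were lower, and DESeq2 called 2 lower. Of 15 valve, collector and surface genes, the connexin gene Gja4 fell by 1.10 (SE 0.13, edgeR adjusted p = 0.00453) and Ccl21c fell as given above, while the connexin gene Gja1, also found in keratinocytes, rose by 0.32 (SE 0.07, edgeR adjusted p = 0.0496). The median of the 15 was -0.03. At an unadjusted p of 0.05, 3 of the 15 were lower and 2 higher, and DESeq2 called 2 lower and 1 higher. Over all genes tested, edgeR called 1.08% lower and 0.686% higher, with 7.95% and 7.41% at an unadjusted p of 0.05. DESeq2 called 1.50% of the genes it tested lower and 1.27% higher. Flt4, Tie1, Sox18 and Gja4 passed in all 16 alternative settings. Tek passed in 11, Adamts14 in 10, Ets1 in 8, Angpt2 in 7 and Gja1 in 5. The falls of Tie1, Sox18 and Gja4 were near those of the pan-endothelial genes Cdh5 and Cd93 (log2 fold changes of -0.93 and -0.93). Cdh5 and Cd93 fell more than most of the 16 pan-endothelial genes, whose median was -0.54. The falls of Tie1, Sox18 and Gja4 were likewise larger than that median. The part of lymphatic vessels in these falls was not tested.

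Genes of all endothelium were lower in the same libraries. Of the 16 pan-endothelial genes listed, 8 fell and 0 rose, where 1.08% of all genes tested were called lower and 0.686% higher. At an unadjusted p of 0.05, 13 were lower and 0 higher, against 7.95% and 7.41% of all genes tested. DESeq2 called 12 lower and 0 higher, against 1.50% and 1.27% of the genes it tested. The edgeR test without control 3 also called 12 lower, and 5 were called without control 1, control 2, ecko 2 or ecko 3. Their summed level was 605 to 667 CPM in controls and 426 to 442 CPM in ecko libraries. The junction gene Cdh5 fell by 0.93, the sialomucin gene Podxl by 0.87, the receptor gene Cd93 by 0.93 and Pecam1, the gene of CD31, by 0.52. Of 10 capillary genes tested 6 fell and 0 rose, against the same shares of all genes tested. At an unadjusted p of 0.05, 8 of the 10 were lower and 0 higher, and DESeq2 called 6 lower and 0 higher. The edgeR count of 6 was 1 without ecko 1 or without ecko 2, and 4 without control 2 or ecko 3. Cd36 and Plvap, the highest, had log2 fold changes of 0.08 (SE 0.12) and -0.49 (SE 0.08).

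Each lymphatic gene was therefore also read against the mean log2 CPM of the 16 pan-endothelial genes in the same library, a mean with a difference of -0.57 between ecko and control skin. Relative to it, Prox1 was lower by a difference of -0.37 and Klhl4 by -0.29, with all ecko values below all control values. Such a separation was found for 0.316% of the genes tested, a share kept low by the fall of the reference itself. For Prox1 the nearest libraries were control 1 at -0.99 and ecko 3 at -1.05, and for Klhl4 control 1 at -1.63 and ecko 1 at -1.65. Control 3 stood well above the other controls for both, at -0.49 for Prox1 and -1.14 for Klhl4. Pdpn and Nr2f2 were higher relative to endothelium, by 0.70 and 0.38, without overlap, as were 87.4% of the genes tested. Ccl21a (-0.26), Foxc2 (-0.01), Mmrn1 (0.02), Lyve1 (0.22) and Reln (0.24) overlapped. An exact two-sided permutation test over 3 against 3 libraries cannot go below p = 0.10, which Prox1, Klhl4, Pdpn and Nr2f2 reached, or 0.225 adjusted over the 9 genes, so none of these differences passes. With 10 capillary genes as the reference, Prox1 was at -0.27 and Klhl4 at -0.19, and both overlapped.

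**Figure D4:**
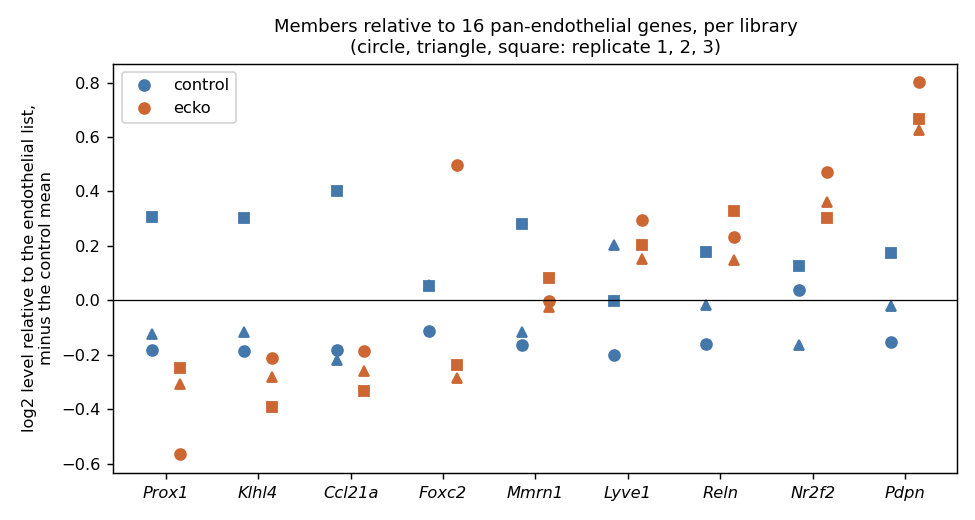
Log2 level of each lymphatic gene relative to the mean of 16 pan-endothelial genes in the same library, set to 0 at the control mean (vertical axis), with 1 point per library. Prox1 and Klhl4 lie lower in ecko, Nr2f2 and Pdpn higher, and the other 5 overlap.

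The genes whose profile over the 6 libraries was most like that of Prox1 were found by the root mean square difference of centred log2 CPM among 14318 genes with a mean of at least 1 CPM. They were the endothelial gene Myct1 (difference 0.11), Cd93 (0.15), Klhl4 (0.15), the cytochrome P450 gene Cyp2f2 (0.15) and Rasgrp3 (0.16), followed by Ccl21a (0.16). Mmrn1 ranked 43, Reln 290, Lyve1 645, Foxc2 1336, Nr2f2 1468 and Pdpn 11148. With 6 libraries in 2 groups, this measure mostly reflects the difference between the groups.

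**Figure D5:**
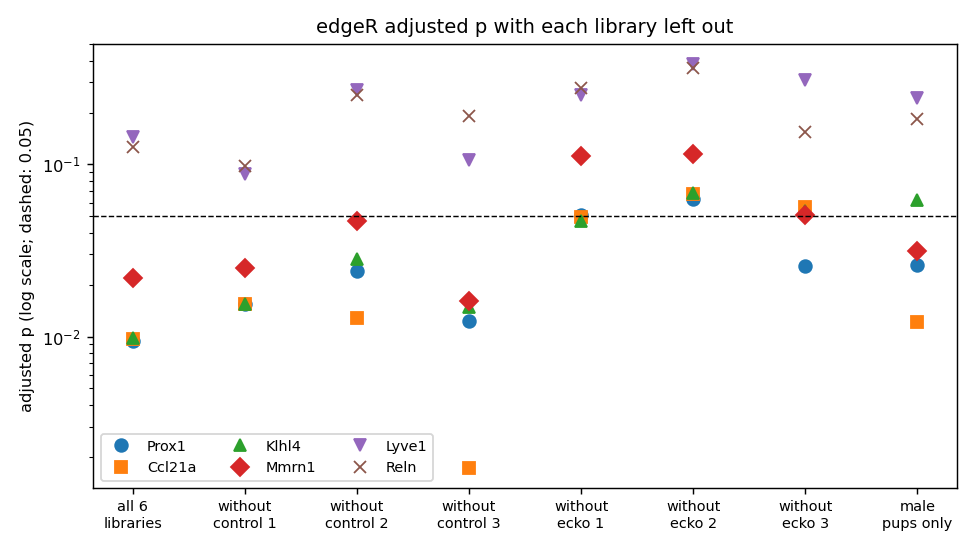
Adjusted p of the edgeR test (vertical axis, log scale, dashed line at 0.05) for 6 lymphatic genes with all libraries, with each library left out and in the male pups alone. Prox1, Ccl21a, Klhl4 and Mmrn1 lie under the line with all libraries and with any control left out, and above it without ecko 2, while Lyve1 and Reln lie above it throughout.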

How the data were processed

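Per the labels, ear skin of 3 mice a group was snap-frozen and its poly(A) RNA sequenced. The authors deposited unscaled expected counts, that is estimated read counts, with 1 column per library. Of these values 10.5% are not whole. RSEM 1.3.1, HISAT2 2.2.1 and Bowtie2 2.4.5 and the build GRCm38.p6 are named, with no roles, in the submitters' processing notes. The strand setting and annotation are not given in the sources used here. RSEM divides reads shared by several genes by estimate.

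Counts were rounded. filterByExpr (minimum count 10) kept 14866 of 18422 genes. Libraries were scaled by TMM and tested with the edgeR quasi-likelihood test (edgeR 4.0.16, R 4.3.3), with a genotype term alone. P-values were adjusted by Benjamini-Hochberg over all tested genes, and 0.05 was the threshold. The standard error was the log2 fold change divided by the square root of F. Log2 CPM used a prior count of 2. The biological coefficient of variation was 8.80%. Pairs of libraries within a group varied 4.91 to 14.9 times more than sampling noise, so none was a duplicate. Recovery was checked on 5 sets simulated from the mean counts of these libraries (14885.2 genes tested on average). Every gene was given the same biological coefficient of variation, and changes were placed only in the better counted genes. Recovery was 68.4% for changes of 0.5 log2 units and 99.2% for changes of 1 log2 unit, with 5.63% false calls. Real genes differ in variation, so these shares may be too favourable.

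The genes named were the 9 lymphatic genes, Kdr, the other Ccl21 rows, every called gene of the other lymphatic lists, the 4 pan-endothelial genes with the smallest p, the leading 2 by level of each marker list and the 5 nearest to Prox1. Members and lists were chosen with earlier results of these data known. Alternatives were DESeq2 1.42.0, limma-voom (limma 3.58.1), upper-quartile or RLE factors, no low-count filter, a replicate block, a sex term, a threshold of 0.1, each library left out, and, added after seeing the data, male pups only and the Ccl21 rows summed.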

Additional observations from a re-analysis of the deposited data

How the results depend on the processing

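The count of 4 lymphatic genes called lower held under RLE and upper-quartile factors, DESeq2, limma-voom, no low-count filter, the replicate block, the sex term, a threshold of 0.1 and the summed Ccl21 rows, it was 3 in the male pups, and it ranged from 0 to 4 with 1 library left out. None was called higher in any setting, and each of the 9 genes kept the sign of its log2 fold change in all 16. Prox1 ranged from -1.04 to -0.82, Ccl21a from -0.95 to -0.65, Klhl4 from -0.95 to -0.73, Mmrn1 from -0.62 to -0.45 and Foxc2 from -0.86 to -0.40. Over all genes, 160 were called lower and 102 higher, ranging from 34 to 242 and from 22 to 165 with 1 library left out; the threshold of 0.1 gave 269 and 182, the male pups 91 lower, and DESeq2 195 higher. The replicate block gave 63 higher and left the 4 lymphatic calls. Whether the shared replicate numbers pair the libraries was not settled. Correlations of deviations were 0.05, 0.05 and 0.17 for numbers 1, 2 and 3, and -0.10 to 0.06 for unlike numbers. Number 3 joins the female libraries, and control 2 correlated best with ecko 1 (0.06). Members separated from the endothelial list numbered 2 lower and 2 higher, from 2 to 4 in each direction with 1 library left out, and 0 lower and 3 higher against the capillary list. The cause of these differences was not tested. A test of whether the change differed between the sexes called none of the 9 genes (edgeR adjusted p of 0.540 for Ccl21a, the lowest), with 1 female in each group.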

Other observations

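Cldn11, a tight junction gene of lymphatic valves that did not pass the edgeR test, had 3.87, 2.39 and 3.91 CPM in controls and 2.03, 1.77 and 1.29 CPM in ecko libraries, a log2 fold change of -0.999 (SE 0.25, edgeR adjusted p = 0.101). Among the extracellular partners of VEGF-C, Ccbe1 had 0.18 (SE 0.07, edgeR adjusted p = 0.264), Svep1 0.37 (SE 0.10, edgeR adjusted p = 0.111) and Adamts3 0.11 (SE 0.14). DESeq2 called Svep1 higher (DESeq2 adjusted p = 0.0191). For Ccbe1 and Svep1 all ecko values lay above all controls, as for 10.2% of the genes tested, while Adamts3 overlapped. The VEGF-C co-receptor gene Nrp2 had -0.05 (SE 0.07). These genes were named after their values were seen.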
